A study of Mus musculus with 16 samples.

Results

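The 4 libraries described here, out of 16 in the series, are 2 of RBM45 knockout clone 1 and 2 of the Cas9 control clone whose count columns are headed e1. The pair was selected on the measured gene counts, as the knockout and the control clone that lay closest in overall expression. The root mean square log2 difference over 16223 tested genes was 0.403 between them, against 0.706 between the same knockout and the other control clone, e4. It was 0.73 between RBM45 knockout clone 2 and e1, and 0.827 between knockout clone 2 and e4. Libraries of the same line differed by 0.364 to 0.593 on the same measure.

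All cells were mHiPPoE-2, a transformed mouse hippocampal neuron line (strain label Crl:CFW(SW)-024), cultured without treatment, and total RNA was sequenced after ribosomal RNA depletion. The 8 lines had 2 libraries each: wild-type (WT) cells, a Cas9-guided METTL3 knockout from 1 clonal isolate, Cas9 control clones e1 and e4, which received Cas9 and no guide RNA, RBM45 knockout clones 1 and 2, and rescue clones m2 and m3. The rescue clones carried an F-HA-tagged RBM45 with altered guide RNA sites (RBM45_mut[delta]gRNA) in an RBM45 knockout background; which knockout clone they were made from is not given in the labels. Each engineered line is a single clone, so the loss of RBM45 and any other difference between 2 clones cannot be told apart within a pair. Nothing in the labels says that the 2 libraries of a line came from separate cultures, so the spread between them may be technical.

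RBM45 is an RNA-binding protein with RNA recognition motifs that is found in inclusions in amyotrophic lateral sclerosis and frontotemporal lobar degeneration. It binds RNAs that carry N6-methyladenosine (m6A), the mark that METTL3 writes together with METTL14. IDE, the insulin-degrading enzyme, is a zinc metalloprotease that cuts insulin and amyloid-beta peptides. A gene can end its transcripts at an exon inside the gene instead of its last exon; such a transcript lacks all downstream coding exons.

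Total counts over genes ranged from 7193908 to 18751324 per library, and were 18751324 and 17302594 in e1 and 12449202 and 13873060 in knockout clone 1. The 12 features that held at least 0.5% of a library took 53.3% to 70.6% of the counts, with 67.5% and 58.6% in e1 and 70.6% and 68.2% in knockout clone 1. Of 9 neural progenitor markers, 4 were under 0.5 scaled counts (counts per 1000000, CPM) in all 4 libraries of the pair. Among the others, Nes was at 277 and 210 CPM in e1 and 287 and 278 in knockout clone 1. Vim was at 1059 and 897 CPM in e1 against 1320 and 1047 in knockout clone 1. Of 17 neuronal markers, 10 were under 0.5 CPM in all 4 libraries. Among them Rbfox3, Dcx, Stmn2 and Nefl, which mark postmitotic neurons, were at 0 in all 4 libraries. Map2 was detected at 113 and 126 CPM in e1 and at 105 and 107 in knockout clone 1.

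The transcripts that carry the clearest difference of the pair are 2 forms of Ide, on the minus strand of chromosome 19 (GRCm38). Ide-201, the longer form, has 24 exons and 4962 bases. Ide-203 has 5 annotated exons, shares exon 11 of Ide-201 as its last but 1 exon, and ends in an exon of its own of 2016 bases at chr19:37301663-37303678, inside intron 11 of Ide-201. The sequences below, from the GENCODE vM21 transcripts, show where the forms part: each starts with the last 6 bases of exon 11 (chr19:37303894-37303899) and goes on for 24 bases. Capitals mark exon 12 in the first and the first in-frame stop codon in the second.
Ide-201: attcagAAATGGCAAAATGCTGACCTTAAT
Ide-203: attcagggctgcaaaataaatagactcTGA
The exon 12 bases lie at chr19:37298151-37298174 and those of the Ide-203 exon at chr19:37303655-37303678. The longest reading frame of Ide-201 from ATG to stop has 978 codons, of which 470 lie up to the end of exon 11. In Ide-203 that frame meets the stop codon shown, which ends 24 bases into the terminal exon.

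Rbm45, the targeted gene (chr2:76369984-76383768, plus strand), was measured at 16 and 16.7 CPM in e1 and at 10.8 and 7.68 CPM in knockout clone 1. Both knockout libraries lay below both control libraries, and the mean was 1.77-fold lower (9.22 ± 2.18 against 16.3 ± 0.458 CPM, SD, n = 2). The fitted log2 change was -0.84 (standard error, SE, 0.18). WT cells gave 11.1 and 14.2 CPM, e4 12.8 and 13.4, and the METTL3 knockout 10.6 and 10.9, so the first library of knockout clone 1 reached the level of the METTL3 knockout. In the separate libraries of knockout clone 2, Rbm45 was at 5.7 and 8.04 CPM, a log2 change of -0.93 against e4 (SE 0.19, adjusted p = 0.00147, edgeR quasi-likelihood test with Benjamini-Hochberg adjustment). The rescue clones held 21.1 to 25.9 CPM, a log2 rise of 1.75 over knockout clone 2 (adjusted p = 3.92e-05).

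Reads remained over the Rbm45 gene in both knockout clones. The first exon (chr2:76369984-76370428) gave 4.86 and 3.71 CPM in e1 and 1.83 and 0.863 in knockout clone 1. The bin at chr2:76376319-76376504 gave 2.24 and 2.45 CPM in e1 and 1.72 and 1.64 in knockout clone 1. No bin of Rbm45 was called against the rest of the gene in the pair (first exon usage change -0.91, SE 0.32), in knockout clone 2 against e4 or in rescue against knockout clone 2. The last bin (chr2:76383455-76383768) was at 1.56 and 2.19 CPM in e1 and at 0.968 and 1.12 in knockout clone 1, and at 0.386 to 0.641 CPM in the rescue libraries, which overlap the 0.587 and 0.531 of knockout clone 2. The bin at chr2:76378918-76379081 was at 4.45 to 6.07 CPM in rescue and at 0.755 and 0.834 in knockout clone 2. The guide RNA sequences are not used here, so the position of the cut within Rbm45 is not given.

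**Figure D1:**
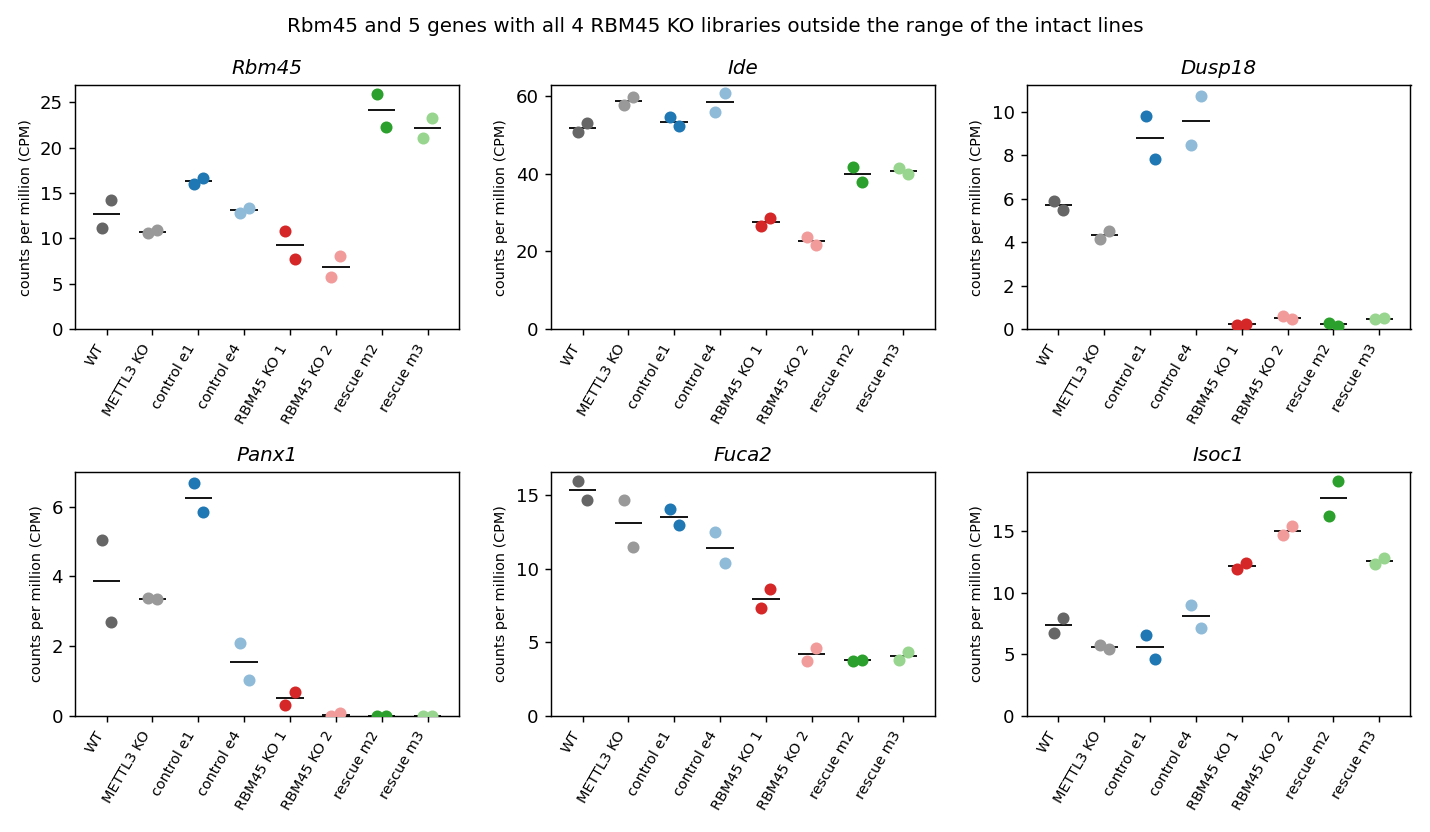
CPM of Rbm45, Ide, Dusp18, Panx1, Fuca2 and Isoc1 in each of the 16 libraries; points are libraries, bars are the means of the 2 libraries of a line, and each vertical axis starts at 0. Dusp18 lies at 0.215 and 0.259 in knockout clone 1 against 9.78 and 7.83 in control e1 and stays low in knockout clone 2 and the rescue clones, whereas Rbm45 is highest in the rescue clones.

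Ide fell by less over the whole gene than over its 3′ part, and the terminal exon of Ide-203 was many times higher in knockout clone 1. Over the gene body, introns included, Ide was at 54.6 and 52.2 CPM in e1 and at 26.6 and 28.5 CPM in knockout clone 1, 1.94-fold lower (log2 change -0.96, SE 0.12). The bin that holds nearly all of the Ide-203 terminal exon (chr19:37301663-37303649, 1987 bases) was at 0.623 and 0.418 CPM in e1 and at 5.92 and 7.94 CPM in knockout clone 1. No library of an intact line came near those values: WT had 0.432 and 0.0999 CPM, e4 0.696 and 0.475, and the METTL3 knockout 0.9 and 0.853. Relative to the rest of the gene, usage of the bin was higher by 5.10 on the log2 scale (SE 0.31).

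The exons of Ide-201 split at the same place. Exons 1 to 11, summed over their bins, gave 33.6 and 31.8 CPM in e1 and 16.8 and 19 CPM in knockout clone 1, 1.83-fold lower. Exons 12 to 24 gave 53.3 and 46.0 CPM in e1 and 6.02 and 8.97 CPM in knockout clone 1, 6.61-fold lower. The ratio of exons 12 to 24 to exons 1 to 11 was 1.58 and 1.44 in e1 and 0.359 and 0.473 in knockout clone 1, and it lay between 1.33 and 1.94 in all 8 libraries with intact Rbm45 (WT, the METTL3 knockout, e1 and e4). Taking the terminal exon as a share of the terminal exon plus exons 12 to 24, e1 had 1.16% and 0.901% and knockout clone 1 had 49.5% and 46.9%. A read that touches several bins is counted in each, so these sums describe bins and are not numbers of transcripts, and the share compares stretches of unequal length.

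The same switch was measured in libraries that are not part of the pair, although their distances were among those compared when the pair was chosen. Knockout clone 2 had the terminal exon at 6.71 and 7.73 CPM, with a usage change against e4 of 5.34 on the log2 scale (SE 0.31, adjusted p = 7.43e-61, edgeR exon-bin test). Its exons 1 to 11 were 2.54-fold and its exons 12 to 24 9.33-fold lower than in e4, and the terminal exon was 12.3-fold higher. The rescue clones held the terminal exon at 2.65 and 2.22 CPM (m2) and 2.08 and 2.37 CPM (m3), a usage change against knockout clone 2 of -2.61 (SE 0.20, adjusted p = 2.91e-33). Their terminal exon share was 6.78% to 8.07%, between the 0.223% to 1.69% of the intact lines and the 46.9% to 64.6% of the 4 knockout libraries. Exons 12 to 24 were 5.25-fold (m2) and 5.51-fold (m3) higher than in knockout clone 2. Over the gene body the rescue clones rose by 0.83 on the log2 scale (adjusted p = 0.000935), which passed the threshold of 0.05 but did not without replicate 2 of knockout clone 2 (adjusted p = 0.0578).

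Another Ide exon, chr19:37280585-37280752, gave 4.92 and 4.54 CPM in e1 and 0.108 and 0.69 CPM in knockout clone 1, a usage change of -2.08 (SE 0.43) that missed the threshold when any 1 of the 4 libraries was left out. It had 0.419 and 0.455 CPM in knockout clone 2, where its usage change against e4 missed the threshold (log2 -1.52, adjusted p = 0.306). The intron that contains the terminal exon (chr19:37298175-37303893) went from 0.748 and 0.627 CPM to 6.35 and 8.8 CPM, values that include the reads of that exon. The next intron upstream (chr19:37303997-37309787) had 0.312 and 0.627 CPM in e1 and 1.61 and 1.04 CPM in knockout clone 1, and in knockout clone 2 its usage change was 0.63 (adjusted p = 0.822).

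Ide-203 was looked at for 2 sequence features, on the transcript strand only. GGACT, a common form of the m6A consensus, occurs 1 time in its terminal exon, at base 1887 of that exon (chr19:37301776-37301804, capitals mark the match).
Ide-203: tccctctagcctGGACTtcaggccataaa
Of 6762 other terminal exons that are at least as long, 82.3% hold GGACT in a stretch of the same length, with a median of 2 matches. Neither AATAAA nor ATTAAA, the usual poly(A) signals, occurs in the last 60 bases of Ide-203 as annotated, whereas 73.1% of 21864 protein-coding genes have 1 of them there. These matches are descriptions of the letters and not of bound or used sites.

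**Figure D2:**
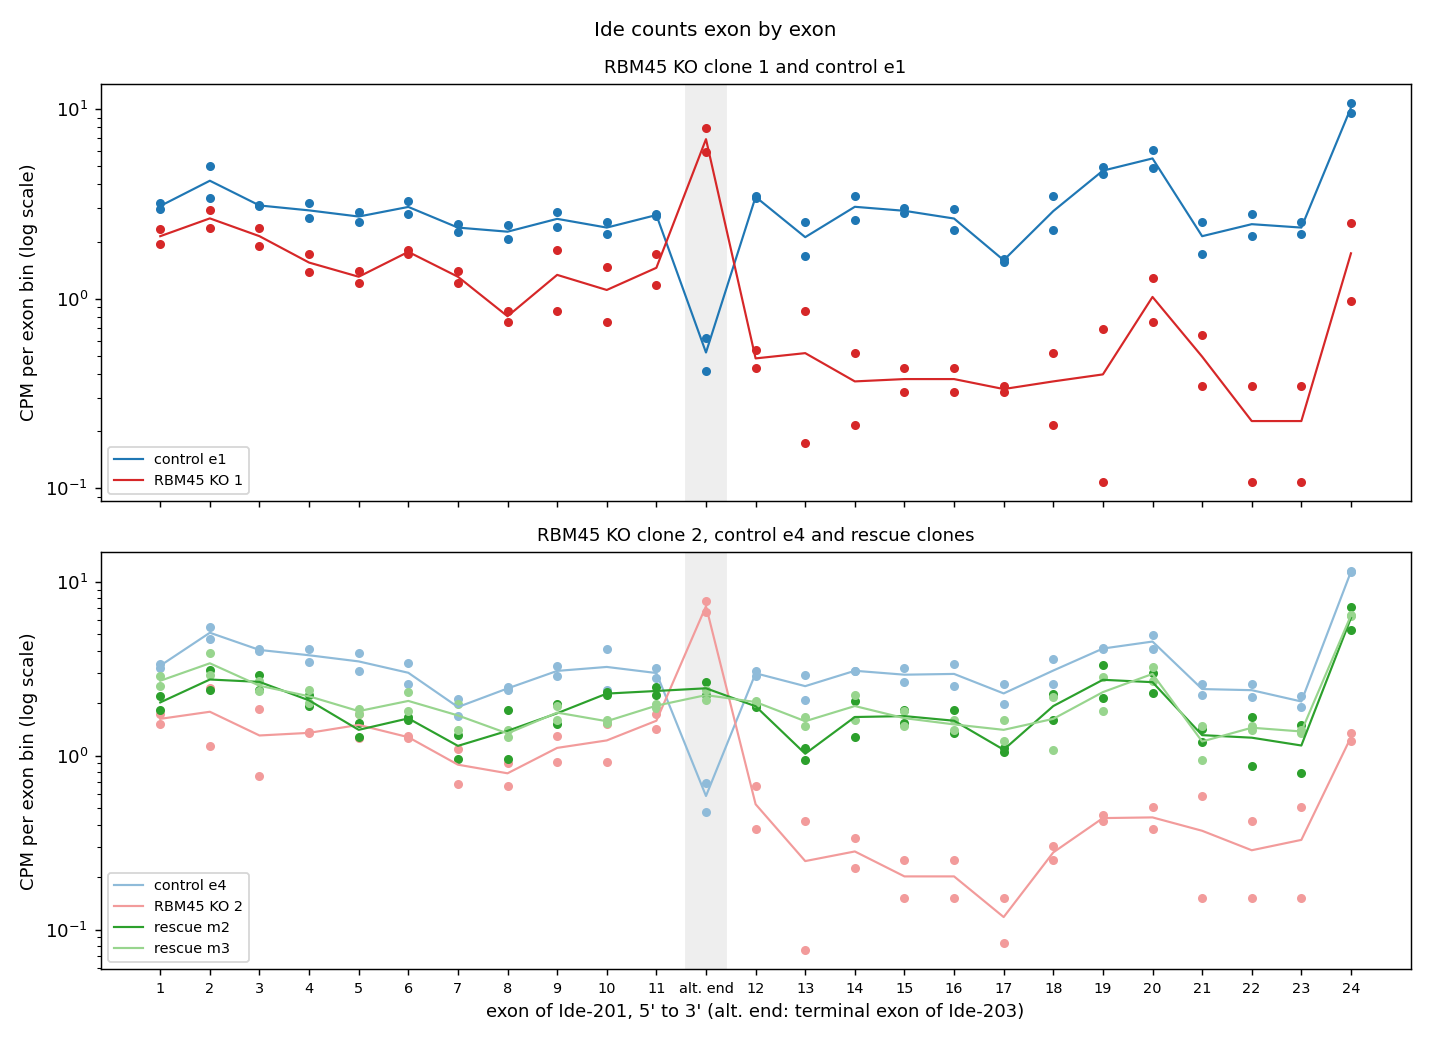
CPM per exon bin of Ide (log axis), in the order of transcription, with the terminal exon of Ide-203 placed after exon 11 and shaded; points are single libraries, lines join the means of 2 libraries and values under 0.05 are drawn at 0.05. In knockout clone 1 and in knockout clone 2 the terminal exon is above the control and the exons after it are below, and the rescue clones lie between.

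Across all genes, 67 of 16223 (0.413%) were higher in knockout clone 1 than in e1 and 58 (0.358%) were lower at an adjusted p under 0.05, which is what called means here. Because the pair was chosen for being close, these counts describe it and are not evidence of how many genes respond. Without the first library of knockout clone 1 the count of 125 was 46, and without its second library 58. It was 61 without the first and 62 without the second library of e1, and 34 of the 125 genes were called in each of these 4 fits. The 34 include Ide, Dusp18, Panx1, Cdh10, Slc6a17, Lgr6, Tacr1, Chd3, Zc3hav1, H2afy2, Nmnat2, Ucp2, Dchs1, Gli2, Col4a6, Plcl2, Lpcat2, Thsd4, Ptx3, Veph1, Ica1, Chrdl1, Hmx2, Hist1h2aj, Fendrr, Col8a1, Bend4, Plxdc2, Pde5a, Lrrc7 and the joined feature of Srgap1. Every other gene named here as called in the pair, Rbm45 included, was not called without at least 1 of these libraries. Of the 125 genes 110 are protein coding, 44 were under 1 CPM in 1 line and not in the other, 29 changed by less than 1 on the log2 scale and 16 by more than 4. The library kit does not mark strand and 63 of the 125 genes overlap a gene on the other strand, so reads of those genes and of their partners cannot be told apart.

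Knockout clone 2 against e4 shares no library with the pair and was used to ask which genes moved the same way in a second knockout. That comparison called 2040 genes higher (12.6%) and 2095 lower (12.9%). Of the 67 genes higher in knockout clone 1, 16 (23.9%) were called higher and 20 (29.9%) lower there. Of the 58 lower genes, 24 (41.4%) were called lower and 14 (24.1%) higher. In all, 40 of the 125 genes were called the same way in both comparisons and 34 the opposite way. The 40 were 21 without the second library of e1, 20 without the first and 21 without the second of knockout clone 1. The 34 were 14 to 16 without any 1 library of the pair, and 18 and 21 without the first and the second library of knockout clone 2, where the second comparison itself called 2548 and 2559 genes.

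**Figure D3:**
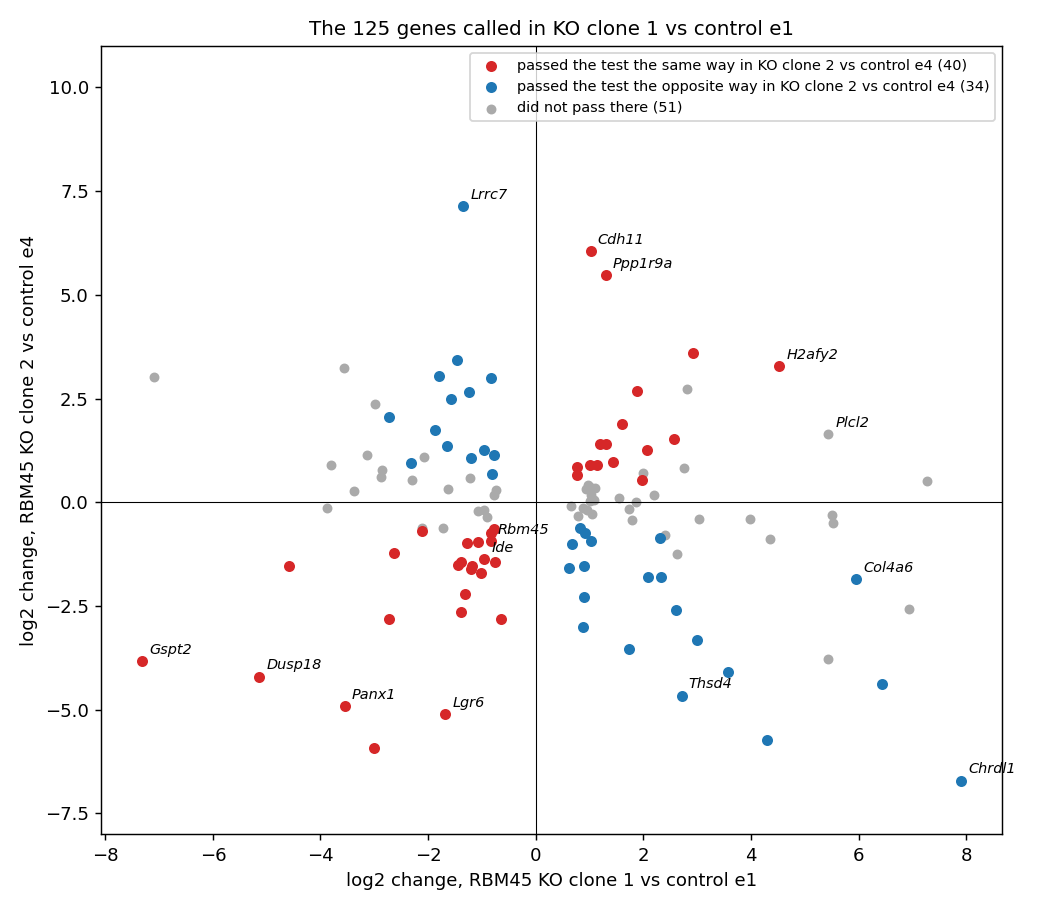
Log2 change in knockout clone 1 against control e1 (horizontal) and in knockout clone 2 against control e4 (vertical) for the 125 genes called in the first comparison; red marks the 40 called the same way in the second, blue the 34 called the opposite way and grey the rest. Dusp18, Ide, Panx1 and Rbm45 lie in the lower left quadrant, and Col4a6, Thsd4 and Chrdl1 in the lower right.

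A further count used levels instead of tests. Both libraries of knockout clone 1 lay above all 8 libraries with intact Rbm45 for 570 of all tested genes (3.51%) and below all 8 for 592 (3.65%); among the called genes this held for 27 of the 67 higher and 27 of the 58 lower. All 4 knockout libraries lay above all 8 intact libraries for 171 genes (1.05%) and below for 172 (1.06%). Among the called genes 10 met this, a number that the choice of called genes raises. Lower were Dusp18, Ide, Panx1, Gspt2, Tanc2, Fuca2 and the joined feature of Srgap1 with Gm48804, and higher were Isoc1, Rny1 and Gm12896. The joined feature and Gm12896 fall outside the rule for named genes and were picked after their values were seen.

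Dusp18, a dual-specificity phosphatase (chr11:3895240-3901296, plus strand), was at 9.78 and 7.83 CPM in e1 and at 0.215 and 0.259 CPM in knockout clone 1, 37.2-fold lower by the means and -5.14 on the fitted log2 scale (SE 0.35). It was at 8.45 and 10.7 CPM in e4, 5.9 and 5.49 in WT and 4.16 and 4.51 in the METTL3 knockout. Knockout clone 2 had 0.587 and 0.455 CPM (log2 change against e4 -4.20, adjusted p = 1.37e-08). The rescue clones had 0.276 and 0.159 CPM (m2) and 0.469 and 0.513 CPM (m3), with a log2 change against knockout clone 2 of -0.62 (SE 0.43, adjusted p = 0.53). So the 8 knockout and rescue libraries were low and the 8 intact libraries were high, with no overlap.

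Panx1, which forms large-pore membrane channels (chr9:15002128-15045478), was at 6.67 and 5.85 CPM in e1 and at 0.323 and 0.69 CPM in knockout clone 1, 12.4-fold lower by the means. It was at 0 and 0.0758 CPM in knockout clone 2 against 2.09 and 1.02 in e4 (log2 change -4.92, adjusted p = 0.000634). All 4 rescue libraries were at 0, and no return was measured there. Fuca2, a fucosidase (chr10:13499540-13519035), gave 14.1 and 13 CPM in e1 and 7.31 and 8.63 in knockout clone 1, and fell in knockout clone 2 from 12.5 and 10.4 to 3.77 and 4.63 CPM (log2 change -1.43, adjusted p = 2.16e-05). The rescue clones held it at 3.75 to 4.36 CPM.

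Tanc2, a scaffold protein of the postsynaptic density, was at 40.9 and 41.2 CPM in e1 and at 21 and 24.7 CPM in knockout clone 1, and had a log2 change of -0.74 in knockout clone 2 (adjusted p = 0.00213). The METTL3 knockout had it at 64.7 and 59.3 CPM, above WT at 28.2 and 25.2 (log2 change 1.22, adjusted p = 4.21e-05). Gspt2, which encodes a translation termination factor of the eRF3 family on the X chromosome, had 1.37 and 1.62 CPM in e1 and no count in knockout clone 1, at least 10.5-fold lower if 3 counts over the 2 libraries are taken as the limit of a count of 0. Its fall in knockout clone 2 (log2 -3.82, adjusted p = 0.00686) was lost without replicate 2 of that clone (adjusted p = 0.0771).

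Of the higher genes of this group, Isoc1 and Rny1 rose by 1.13 and 1.44 on the log2 scale in the pair. These changes were smaller than those of Dusp18 and Panx1 and larger than those of Ide and Tanc2. Isoc1, an isochorismatase domain protein, was at 6.6 and 4.6 CPM in e1 and 11.9 and 12.4 in knockout clone 1, and at 14.7 and 15.4 in knockout clone 2 against 9.04 and 7.13 in e4 (log2 change 0.91, adjusted p = 0.000929). Rny1, the Y1 RNA that is bound by Ro60, was at 9.6 and 8.1 CPM in e1 and at 24.0 and 23.9 in knockout clone 1, and rose by 0.98 on the log2 scale in knockout clone 2 (adjusted p = 0.00579). That rise missed the threshold without replicate 2 of e4 (adjusted p = 0.0658), and Rny1 moved with the other structural RNAs described further on. Of the 10 genes, Ide alone was also called back in the rescue clones, where the libraries are compared with knockout clone 2.

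Beyond those genes, regulators of transcription and chromatin and adhesion molecules were among the genes called higher in both comparisons. H2afy2, which encodes the histone variant macroH2A2, was at 0.125 and 0.157 CPM in e1 and 3.76 and 3.19 in knockout clone 1, and rose by 3.29 in knockout clone 2 (adjusted p = 3.49e-07). Gli2, a transcription factor of the Hedgehog pathway, went from 0.561 and 0.679 to 4.62 and 3.02 CPM in the pair and rose by 1.53 in knockout clone 2 (adjusted p = 2.37e-05). It was at 9.07 and 6.79 CPM in WT and 9.54 and 14 in e4, so e1 was the low line. Cdh11, a classical cadherin, rose by 1.02 in the pair (5.67 and 5.07 against 11.1 and 10.7 CPM) and by 6.05 in knockout clone 2 (adjusted p = 8.82e-11), where e4 had 0.398 and 0.815 CPM. Ppp1r9a, the actin-binding scaffold neurabin, rose by 1.30 and by 5.48 (adjusted p = 5.76e-09), and Clip3, a microtubule-associated linker protein, by 0.77 and by 0.84 (adjusted p = 0.000118). For Ppp1r9a e4 had 0.0994 and 0.272 CPM and knockout clone 2 had 9.81 and 8.95. In WT, H2afy2 was at 3.17 and 2.3 CPM and Cdh11 at 13.4 and 8.99. Ppp1r9a was at 9.36 and 9.59 CPM in WT and 7.85 and 8.8 in knockout clone 1, and Clip3 at 36.4 and 35.1 against 31.9 and 27.1. For these genes too the WT mean was nearer to knockout clone 1 than to e1.

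Metabolic and RNA-binding genes were also among them. Nmnat2, an NAD-synthesising enzyme that maintains axons, went from 2.93 and 3.5 to 9.47 and 10.1 CPM in the pair. It rose by 1.88 in knockout clone 2 (adjusted p = 3.95e-05), from 1.09 and 1.7 CPM in e4 to 6.12 and 4.55. Ucp2, a mitochondrial carrier, went from 12 and 7.42 to 40.5 and 30.8 CPM in the pair. It rose by 2.68 in knockout clone 2 (adjusted p = 9.8e-05), from 1.89 and 0.815 CPM in e4 to 8.81 and 7.51. Zc3hav1, the zinc finger antiviral protein, went from 4.11 and 3.39 to 14.3 and 15.3 CPM. In knockout clone 2 it rose by 0.53 (adjusted p = 0.0397). That call was lost with DESeq2 and without a filter on low counts. It was also lost without replicate 1 of e4 or without either library of knockout clone 2. The remaining higher genes were Dchs1, Irx3 and Ldah, whose calls in knockout clone 2 (adjusted p = 0.0146, 0.0352 and 0.00769) were each lost without at least 1 library. Those of Dchs1 and Irx3 were also lost with DESeq2, and those of Irx3 and Ldah with exon counts summed per gene. In WT, Zc3hav1 was at 17.8 and 12.6 CPM, so knockout clone 1 lay between the WT libraries. WT had Nmnat2 at 6.91 and 5.69 CPM and Ucp2 at 22.9 and 15.3, between e1 and knockout clone 1. The means of knockout clone 2 lay below those of WT for Nmnat2 and Ucp2. H2afy2, Gli2, Nmnat2, Ucp2, Dchs1, Irx3 and Ldah overlap a gene on the other strand.

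Receptors, transporters and membrane proteins were among the genes called lower in both. Lgr6, a receptor for R-spondins that promotes Wnt signalling, was at 49.0 and 47.3 CPM in e1 and 15.7 and 14.4 in knockout clone 1, and fell in knockout clone 2 from 124 and 137 to 3.44 and 4.17 CPM (log2 change -5.10, adjusted p = 3.17e-10). WT had 11.8 and 25.9 CPM, so knockout clone 1 lay between the WT libraries. Tacr1, the substance P receptor, was at 26.9 and 26.6 CPM in e1 and 10.8 and 10.6 in knockout clone 1 (knockout clone 2 log2 change -2.22, adjusted p = 2.64e-07). WT had Tacr1 at 9.21 and 7.09 CPM, below both libraries of knockout clone 1. Sytl5, a Rab27 effector in vesicle traffic, fell by 3.01 in the pair and had a log2 change of -5.91 in knockout clone 2 (adjusted p = 1.69e-07). Slc6a17, a synaptic vesicle transporter of neutral amino acids, was at 4.74 and 5.69 CPM in e1 and 1.08 and 1.29 in knockout clone 1. Its change in knockout clone 2 (log2 -0.69, adjusted p = 0.00399) was lost without replicate 2 of e4 or replicate 2 of the knockout, up to 0.0685.

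Cdh10, a classical cadherin, was at 5.67 and 8.46 CPM in e1 and 0.215 and 0.345 in knockout clone 1. In knockout clone 2 its change was -1.53 (adjusted p = 0.0124). That call was lost with exon counts summed per gene, and without replicate 2 of e4 or either library of knockout clone 2. Chd3, an ATPase of the NuRD chromatin-remodelling complex, was at 20.6 and 18.5 CPM in e1 and 7.31 and 9.66 in knockout clone 1 (knockout clone 2 log2 change -1.54, adjusted p = 5.45e-07). For Chd3 e4 was the high line, at 53.5 and 44.4 CPM. Knockout clone 2 had 16.8 and 16.8 CPM and WT 18.6 and 22.2. Mgat3 and Gnpda2, which act in N-glycan branching and glucosamine metabolism, had log2 changes of -1.02 and -1.20 in the pair and of -1.71 (adjusted p = 3.36e-07) and -1.61 (adjusted p = 0.000214) in knockout clone 2. Mgat3 was at 4.89 and 4.19 CPM in WT, 9.03 and 7.36 in e1 and 4.3 and 3.8 in knockout clone 1. In e4 it was at 23.3 and 21.7 CPM and in knockout clone 2 at 6.37 and 7.28, above WT. Tspan2, Igsf10 and Ndrg4 were also called lower in both comparisons. Their log2 changes in knockout clone 2 were -1.45, -1.51 and -2.81 (adjusted p = 1.8e-05, 0.00377 and 3.17e-10), and these calls held under every alternative tried. In the pair, each of them missed the threshold without at least 1 library. Tspan2 was at 19.2 and 20.9 CPM in e4, 6.79 and 7.89 in knockout clone 2 and 7.48 and 11.9 in WT. Aig1 (-2.82, adjusted p = 0.00407) was lost without replicate 2 of knockout clone 2 (0.0558). Fyb2, Mtus1 and Tdrp were lost without at least 1 library. Fyb2 and Mtus1 were also lost with exon counts summed per gene, and Tdrp with DESeq2.

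The direction of other large changes was not shared. Col4a6, a chain of type IV collagen, was at 0.125 and 0.157 CPM in e1 and 11.2 and 7.85 in knockout clone 1, 67.7-fold higher by the means, while knockout clone 2 was below e4 (5.62 and 5.76 against 18.1 and 23.0 CPM, log2 change -1.86, adjusted p = 1e-06). WT had 6.77 and 8.59 CPM, so e1 stood apart from WT and knockout clone 1 did not. Thsd4, an extracellular matrix protein, was at 1.93 and 2.4 CPM in e1 and 15 and 13.6 in knockout clone 1, and at 0.168 and 0.0758 in knockout clone 2 against 2.98 and 3.46 in e4 (log2 change -4.66, adjusted p = 5.77e-06). Kif1a, a kinesin of axonal transport, was at 28.1 and 21.2 CPM in e1 and 5.92 and 8.11 in knockout clone 1, and rose by 3.04 in knockout clone 2 (adjusted p = 5.26e-05). Lrrc7, the postsynaptic protein densin, was at 19.7 and 27.5 CPM in e1 and 8.5 and 9.92 in knockout clone 1, and rose in knockout clone 2 from 0 and 0.272 to 23.0 and 24.8 CPM (log2 change 7.13, adjusted p = 4.76e-10). Bend4, Plxdc2 and Pde5a were likewise lower in the pair and called higher in knockout clone 2 (log2 2.06, 1.36 and 0.95), and Ptx3, Veph1, Vax2 and Hecw1 were higher in the pair and called lower there (log2 -2.59, -1.81, -3.53 and -1.79).

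Some of the largest changes did not pass the test in knockout clone 2 against e4. Plcl2, a phospholipase C-like protein, was at 0.0623 and 0.209 CPM in e1 and 5.49 and 7.5 in knockout clone 1, with 7.2 and 6.59 in WT and 7.76 and 9.51 in the METTL3 knockout. Its change in knockout clone 2 was 1.64 (SE 0.81, adjusted p = 0.152). Lpcat2, a lysophospholipid acyltransferase, was at 0.872 and 1.51 CPM in e1 and 9.14 and 10.8 in knockout clone 1, and its change in knockout clone 2 was -0.41 (adjusted p = 0.267). Col8a1, a short-chain collagen, was at 30.8 and 30.8 CPM in e1 and 10.4 and 9.49 in knockout clone 1, below every other library (25.9 to 63.4 CPM), and its change in knockout clone 2 was 0.33 (adjusted p = 0.151).

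Genes with no count in 1 line of the pair were picked after their values were seen. Chrdl1, an antagonist of bone morphogenetic proteins on the X chromosome, had no count in e1 and 1.94 and 2.59 CPM in knockout clone 1, at least 27.0-fold higher with 3 counts over the 2 libraries as the limit. WT had 1.15 and 2.3 CPM and e4 9.04 and 9.51. Hmx2, a homeobox gene, Tcaf2 and Gstm4 had no count in e1 and were at least 17.4-fold, 13.5-fold and 5.05-fold higher in knockout clone 1. Tceal5 had no count in knockout clone 1 and was at least 8.9-fold lower there. These bounds cover counting error only. The X chromosome held 7 of the 125 called genes (5.6%) and 467 of all tested genes (2.88%).

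WT cells gave a further reference. The WT mean was nearer to knockout clone 1 than to e1 for 65 of the 125 genes (52.0%), for 44 of the 67 higher and 21 of the 58 lower genes. Both libraries of knockout clone 1 lay outside all 14 other libraries for 41 of the 125 genes (32.8%), against 548 of all tested genes (3.38%). Both libraries of e1 lay outside all 14 others for 22 (17.6%), against 522 (3.22%). In both cases the called genes had been chosen for a difference between these libraries, so nothing is read from the excess.

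**Figure D4:**
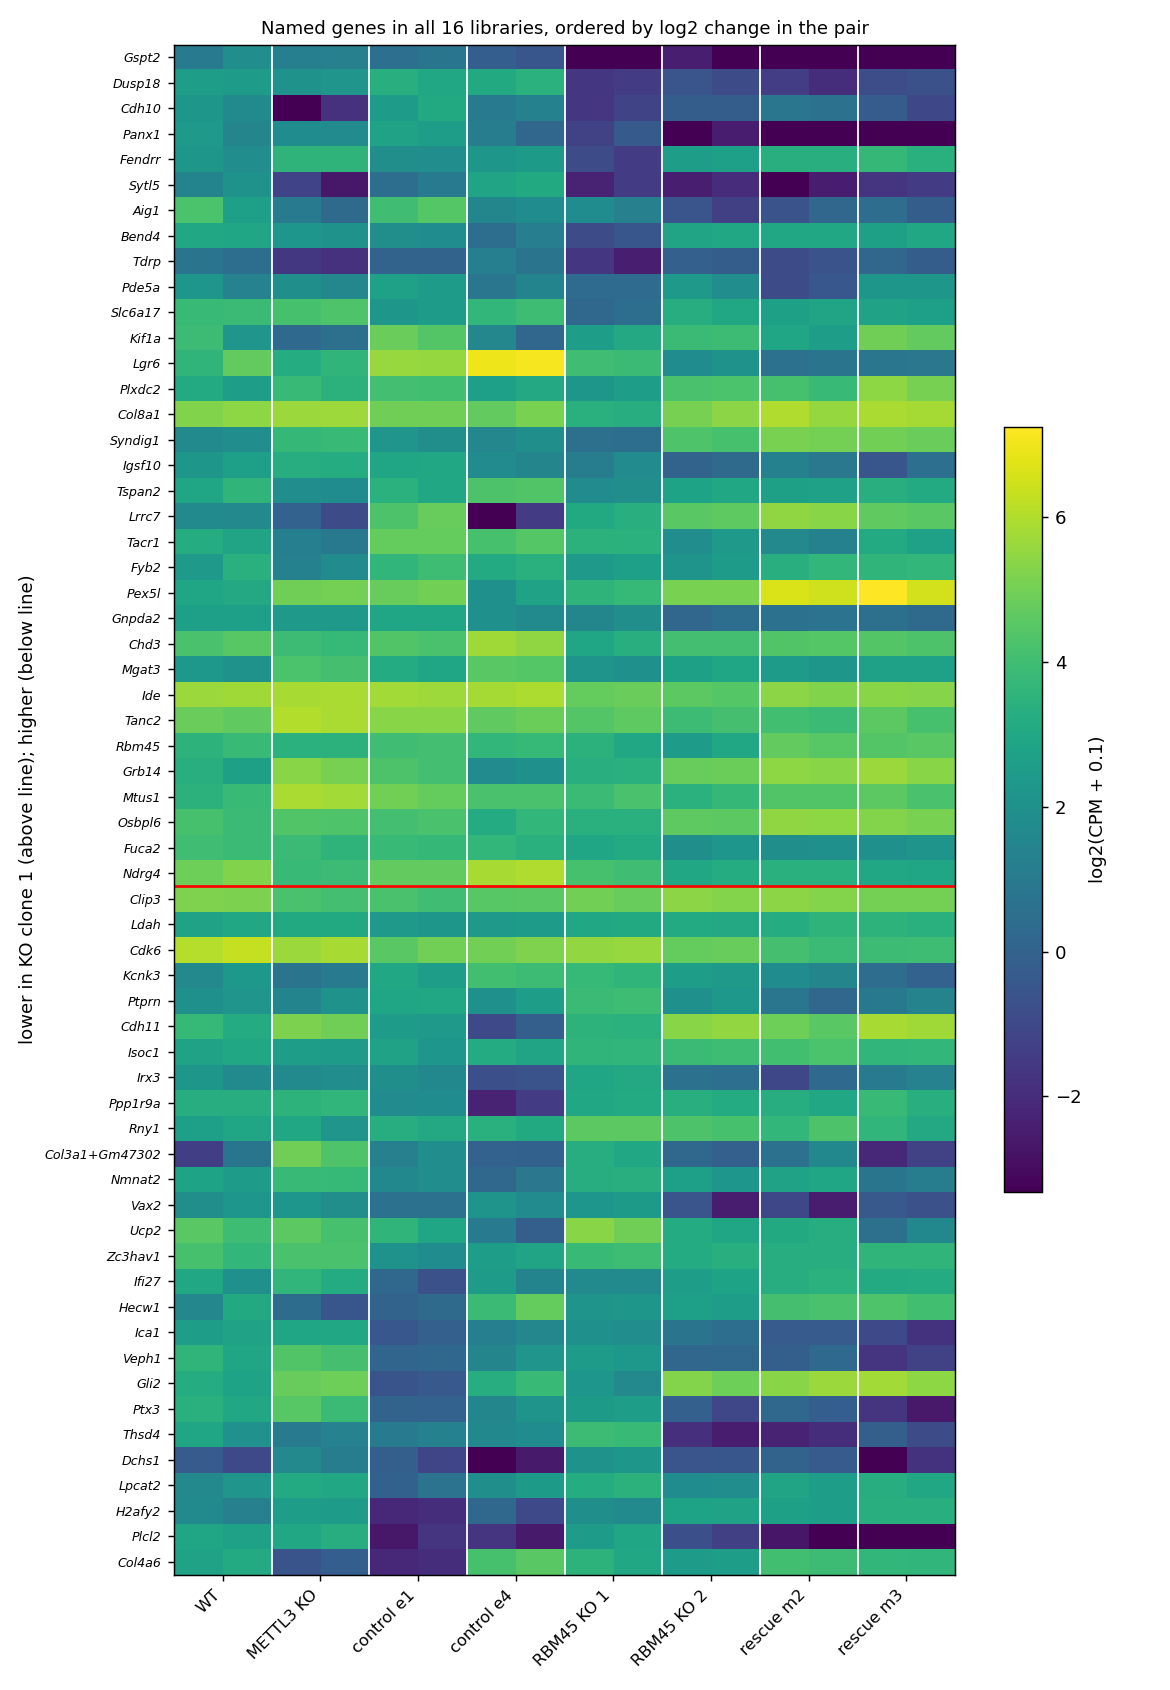
Level in all 16 libraries of each named gene that had a count in control e4 or knockout clone 2, as log2(CPM + 0.1), ordered by the log2 change between knockout clone 1 and control e1; a red line separates lower (above) from higher genes (below). Dusp18 and Panx1 are dark in all knockout and rescue libraries, whereas Col4a6 and Plcl2 are dark in control e1 and bright in WT.

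Rescue against knockout clone 2 called 141 genes higher (0.869%) and 97 lower (0.598%), and shares no library with the pair. Among the 58 genes lower in knockout clone 1, 11 were called higher in rescue, and among the 67 higher genes 6 were called lower in rescue. These 17 were 5 to 7 without any 1 library of the pair, 3 without either library of knockout clone 2 and 9 without the first library of m3. Besides Ide and Rbm45, 12 of these fall under the rule for named genes. Fyb2, an adaptor protein, was lower in both knockout comparisons and rose by 1.28 in rescue (adjusted p = 0.00751), and Mtus1, a microtubule-associated protein, by 0.81 (adjusted p = 0.0114). For Pex5l, which binds HCN channels, Syndig1, a synapse differentiation protein, Osbpl6, an oxysterol-binding-like protein, and Grb14, an adaptor of the insulin receptor, knockout clone 2 was above e4 already and rescue rose further (log2 1.64, 0.74, 0.75 and 0.63). Ica1, Cdk6, Kcnk3 and Ptprn were called lower in rescue (log2 -1.62, -0.79, -1.56 and -1.32), with clone 2 means already below those of e4. Fendrr was called higher (0.81), with a clone 2 mean of 6.04 CPM already above the 4.98 of e4. For these 9 genes both rescue means thus lay further from e4 than the clone 2 mean did. Plcl2 was called lower (log2 -4.35) at levels under 1 CPM, from 0.403 in knockout clone 2 to 0.0276 (m2) and 0 (m3), below the 0.133 of e4. Without replicate 1 or replicate 2 of knockout clone 2, every 1 of these calls but those of Pex5l and Rbm45 was lost at least once; the highest adjusted p over these genes was 0.512, for Syndig1.

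The METTL3 knockout against WT also shares no library with the pair, and asks how the genes behave without the m6A writer. It called 1814 genes higher (11.2%) and 1907 lower (11.8%). Of the 67 higher genes 17 were called higher and 13 lower there, and of the 58 lower genes 17 were called lower and 18 higher. The 34 called the same way were 15 to 20 without any 1 library of the pair. Ide did not pass the test (50.7 and 53 CPM in WT, 57.8 and 59.7 in the METTL3 knockout, log2 change 0.18, adjusted p = 0.284), nor did Dusp18 (log2 change -0.38, adjusted p = 0.234). Mtus1 rose by 2.21 in the METTL3 knockout (adjusted p = 2.77e-07), Cdh10 had a log2 change of -4.92 (adjusted p = 2.37e-05) and Gli2 rose by 1.87 (adjusted p = 2.92e-05). Mettl3 itself was at 9.6 and 8.88 CPM in e1 and 8.07 and 9.49 in knockout clone 1.

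Some called genes lie next to each other, which was looked at after the values were seen. Fendrr, a long non-coding RNA, Foxf1, a forkhead transcription factor, and Mthfsd lie together on chromosome 8 (Fendrr at chr8:121054882-121083110 and Foxf1 at chr8:121084386-121088144, 1275 bases apart), and all 3 were lower in knockout clone 1. Fendrr went from 3.61 and 3.55 CPM to 0.43 and 0.259, Foxf1 from 15 and 14.5 to 7.64 and 6.47, and Mthfsd from 12.1 and 12.9 to 6.78 and 6.64. None of them was called in knockout clone 2 against e4 (log2 0.27, -0.20 and -0.35). Osbpl6 starts 22739 bases after Rbm45 on the same strand of chromosome 2 and was lower in knockout clone 1 (17 and 18.2 against 10.4 and 10.2 CPM), but higher in knockout clone 2 than in e4 (log2 1.13, adjusted p = 3.76e-05). Ptx3 lies within Veph1 on the opposite strand, and Vax2os overlaps Vax2, so the reads of each gene and its partner cannot be told apart.

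Each exon bin was then compared with the other bins of its gene. Of 101929 bins, 7 (0.00687%) were called higher and 6 (0.00589%) lower in the pair, in 10 genes or joined features. The count of 13 was 3 without the first and 6 without the second library of e1, and 6 without the first library of knockout clone 1. Knockout clone 2 against e4 called 26 higher (0.0255%) and 31 lower (0.0304%), and rescue against knockout clone 2 called 3 higher (0.00294%) and 1 lower (0.000981%). Besides the Ide terminal exon, 1 bin was called the same way in knockout clone 2: the Nfix bin chr8:84800141-84800344, in the gene of a nuclear factor I transcription factor. It was at 0.125 and 0.157 CPM in e1, 1.4 and 1.47 in knockout clone 1, 0.298 and 0.475 in e4 and 2.26 and 2.43 in knockout clone 2 (usage change 2.20, adjusted p = 0.00525), and at 1.34 to 2.94 CPM in the rescue clones. All 4 knockout libraries lay above all 8 intact libraries. The bin was picked for its calls in both comparisons, and the share of all tested bins that lie apart in this way was not counted. In the pair the bin was not called without either library of e1 or without the second library of knockout clone 1.

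Like the Nfix bin, the other 5 higher bins lie inside annotated first exons. The GC content of these 6 bins is 80.4% to 89.2%. Of all tested bins, 20.2% lie in first exons, and their median GC content is 50.8%. The 2 properties go together: of the 1462 tested bins of at least 75% GC, 1389 lie in first exons. The place in first exons is therefore not a feature separate from the GC content. The other 5 are in Phc2 (Polycomb subunit), Tead1 (Hippo pathway transcription factor), Slk (kinase), Pmepa1 (transmembrane inhibitor of TGF-beta signalling) and Nectin3 (adhesion molecule). Each of them missed the threshold when at least 1 library of the pair was left out. The Tead1 and Nectin3 bins missed it when any 1 of the 4 libraries was left out. The Pmepa1 bin chr2:173276190-173276533 was at 5.11 and 6.32 CPM in e1 and 15.5 and 13.5 in knockout clone 1, above the 1.89 to 7.76 CPM of all other libraries. The 402 tested bins of over 80% GC had a median usage change of 0.20 on the log2 scale in the pair and of 0.11 in knockout clone 2 against e4, and bins under 75% GC had a median of 0 in the pair. The part of GC content in the 6 called bins was not tested.

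**Figure D5:**
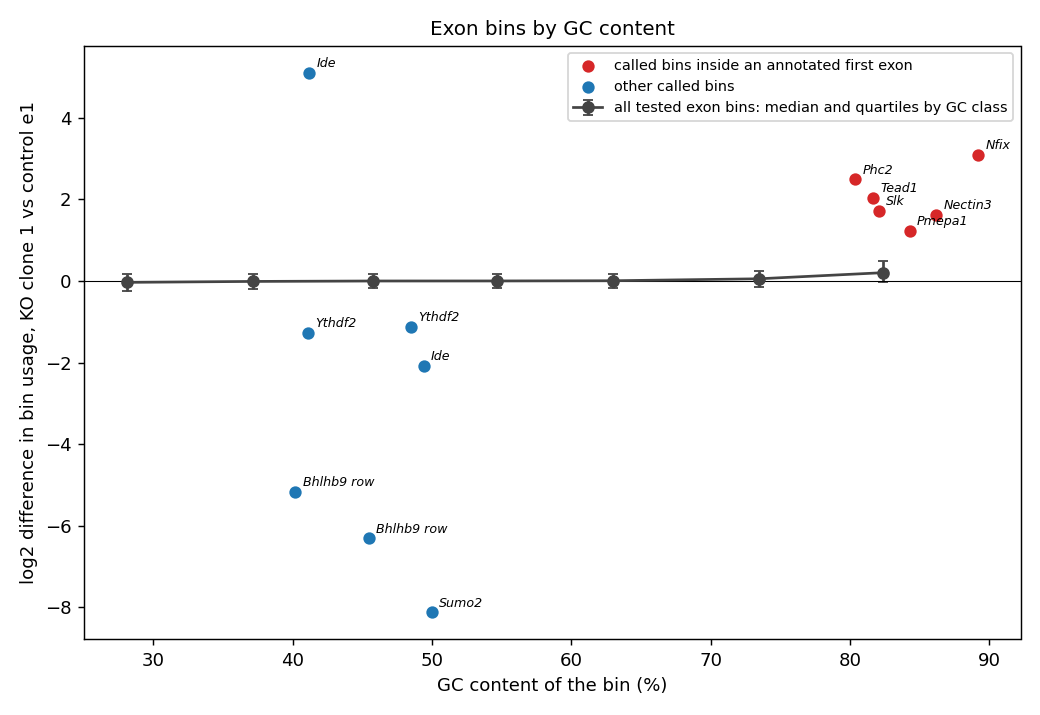
Log2 difference in exon bin usage between knockout clone 1 and control e1 against the GC content of the bin; black points with bars are the median and quartiles of all tested bins by GC class, red points the called bins inside annotated first exons and blue points the other called bins. The 6 red points lie at 80.4% to 89.2% GC and above 0, and the Ide terminal exon lies apart at 41.2% GC.

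Among the lower bins, 2 belong to the joined feature of Gprasp2, Armcx5, Gprasp1 and Bhlhb9 on the X chromosome and lie next to each other. The longer, chrX:135889327-135890864, was at 3.61 and 3.66 CPM in e1 and at 0.108 and 0 in knockout clone 1, while every other library had 2.99 to 9.03 CPM, those of knockout clone 2 included (4.78 and 5.38). Ythdf2, which encodes a reader of m6A, had 2 bins called lower, and the bin chr4:132204132-132205513 was at 98.8 CPM in the first library of knockout clone 1 against 19.7 in its second and 13.2 to 19.6 in all other libraries. Without that library the usage change of the Ythdf2 bin at 132184912 went from -1.27 to -0.34 and that at 132205514 from -1.12 to 0, so both calls rest on 1 library. The Sumo2 bin chr11:115530346-115530417, was at 1.87 and 8.83 CPM in e1, which differed from each other, and at 0 in knockout clone 1.

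Of 25165 intron bins, 2 were called higher (0.00795%) and 2 lower (0.00795%) in the pair. The count of 4 was 28 without the first and 1 without the second library of e1, and 1 without the first library of knockout clone 1. Knockout clone 2 against e4 called 12 higher (0.0477%) and 34 lower (0.135%), and rescue against knockout clone 2 called 861 higher (3.42%) and 13 lower (0.0517%). The higher introns were those of Ide on either side of exon 11. The one after exon 11 contains the Ide-203 terminal exon and counts its reads, so its call is not a separate result. The lower ones were an intron of Ythdf2 and one of the protocadherin alpha cluster. For Ythdf2 the usage change was -1.04, and -0.07 without the first library of knockout clone 1. An intron of Gnas (chr2:174300526-174327941), the gene of the stimulatory G protein alpha subunit, was not called in the pair (usage change 2.00, SE 0.46), with 0.312 and 0.366 CPM in e1 and 1.94 and 1.81 in knockout clone 1. In knockout clone 2 it rose by 5.04 against e4 (adjusted p = 2.79e-08). An intron of Tacc2 (chr7:130621721-130626841) had 2.87 and 1.72 CPM in e1 and 0.538 and 0.863 in knockout clone 1 (usage change -1.70, not called), and its change in knockout clone 2 was -3.0 (adjusted p = 1.21e-07).

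The gene lists gave few called members; the median log2 change over all tested genes was -0.01. With edgeR, 0 of 11 m6A writers and erasers and 0 of 14 m6A readers were called, with medians of -0.11 and -0.06. Neither were any of 32 splicing regulators (median -0.12) or of 17 tested cleavage and polyadenylation factors (median 0.02). At an unadjusted p under 0.05 these 4 lists held 0, 1, 0 and 0 genes, and DESeq2 called 0 in each. Over all tested genes, 1510 of 16223 (9.31%) had an unadjusted p under 0.05 in the pair. Of 12 RNA-binding proteins linked to amyotrophic lateral sclerosis or frontotemporal dementia, Rbm45 was called (median -0.20). Among 12 tested peptide-degrading metalloproteases and 17 tested dual-specificity phosphatases, Ide and Dusp18 were the called members. Classical cadherins had Cdh11 called higher and Cdh10 lower among 8 tested, and 19 tested interferon response genes had Zc3hav1 and Ifi27 called higher (median 0.03).

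Lists of short or unpolyadenylated RNAs had values above 0 with few calls. All 27 replication-dependent histone genes had values above 0 (0.38 to 1.15 on the log2 scale, median 0.57). The edgeR test called 0 of them and DESeq2 2, while 17 were under 0.05 before adjustment. Their summed level was 1887 and 1283 CPM in e1 and 2888 and 1851 in knockout clone 1, so the lower library of knockout clone 1 fell below the higher one of e1. Outside the list Hist1h2aj, Hist1h3g and Hist1h3f were called higher. All 10 structural RNAs were above 0 (median 0.72), with Rny1 called, and their sums of 6044 and 4915 CPM in e1 and 8067 and 5552 in knockout clone 1 overlapped between the lines. Of 25 ribosomal protein genes 23 were above 0 (median 0.24); edgeR and DESeq2 called 0, and 1 had an unadjusted p under 0.05. In the same libraries the share of counts in the top features and the scaled depth also differed, and the part of these in the lists was not tested.

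Markers of other cell types gave 1 call. Of 12 mesenchymal markers 10 were above 0 and the joined feature of Col3a1 was called higher (2.31 and 3.5 CPM in e1, 9.36 and 7.85 in knockout clone 1); their summed level was 3689 and 3484 CPM in e1 and 4383 and 4047 in knockout clone 1. The level of Fn1 was 1732 and 1723 against 1938 and 1888 CPM. Of the tested astrocyte, oligodendrocyte and microglia markers edgeR and DESeq2 called 0, with 0, 2 and 0 at an unadjusted p under 0.05, and neuronal marker sums were 167 and 178 CPM in e1 and 174 and 168 in knockout clone 1. Whether the collagen genes of the pair, Col4a6 and Col8a1, moved with those markers was not tested; they moved in opposite directions.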

How the data were processed

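Ribodepleted RNA-seq was done on 16 libraries of 8 mHiPPoE-2 lines, made with a non-directional kit, per the labels' protocols. The deposited tables hold raw read counts per gene body (introns included), per exon bin and per intron; per the file headers the authors counted with featureCounts 1.6.3, with a strand setting, allowing reads to count in several features at a minimum overlap fraction of 0.1. The submitters' processing notes name HISAT2 2.1.0, Subread 1.6.3, featureCounts 1.6.5, DESeq2 1.32.0 and the build mm10. Their p-values and fold changes are not used.

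Genes were tested with edgeR 4.0.16 (R 4.3.3): TMM scaling, low counts filtered by group, 1 quasi-likelihood fit of 16 libraries in 8 lines, and Benjamini-Hochberg adjustment over 16223 genes, with a threshold of 0.05. Exon and intron bins averaging 10 counts or more per library were compared with the rest of their gene by edgeR's diffSpliceDGE. CPM use the scaled library sizes. Scripts were tested on simulated data. DESeq2 1.42.0, other scalings and filters, exon sums, a fit of the pair alone and leaving out each library were tried as alternatives. The pair was chosen on these values, so its own changes carry no p-value; p-values are given only for comparisons that share no library with it. With 2 libraries a line, an exact permutation of 1 value cannot go below 0.333.

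Members and the 28 gene lists were chosen with earlier results of these data known. Named genes are Rbm45 and Ide, the 15 largest rises and 15 largest falls among called genes with a mean of at least 2 CPM over the 4 libraries and no overlap between the lines, all called the same way in knockout clone 2 or back in rescue, and up to 4 called members of each list, without predicted genes and joined features (a joined Col3a1 feature is given as a list member). A gene that met the rule is not reported here. Gene annotation and sequences are from GENCODE vM21 (GRCm38).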

Additional observations from a re-analysis of the deposited data

Results flagged for a closer look

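Among the genes named by the rule or with no count in 1 line of the pair, those below were called in knockout clone 1 against control e1 with no overlap between libraries, while both libraries of knockout clone 2 lay on the opposite side of both libraries of e4. Other called genes can show the same and are not listed. Lpcat2, Cdk6, Tcaf2, Fendrr and Tceal5 were not called in knockout clone 2 (edgeR adjusted p = 0.267, 0.142, 0.134, 0.336 and 0.0822). The difference between the 2 comparisons was not tested, and each clone is a single line. How many of all tested genes lie on opposite sides in this way was not counted, so nothing is read from the number of genes listed.

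Of these, 12 genes had higher values in knockout clone 1 and lower values in knockout clone 2, given as the log2 change in the first and in the second comparison. Matrix and secreted proteins among them were Col4a6 (5.96 and -1.86), Thsd4 (2.71 and -4.66), Ptx3 (2.61 and -2.59) and Chrdl1 (7.91 and -6.71). Channel genes and a channel-associated gene were Kcnk3 (0.90 and -1.53) and Tcaf2 (6.94 and -2.57). The others were Lpcat2 (3.03 and -0.41), Ica1 (2.31 and -0.85), Veph1 (2.32 and -1.81), Vax2 (1.74 and -3.53), Hecw1 (2.09 and -1.79) and the cell cycle kinase gene Cdk6 (0.79 and -0.33). Ptx3 and Veph1 overlap on opposite strands, so their reads cannot be told apart.

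The other 11 had lower values in knockout clone 1 and higher values in knockout clone 2. Synaptic and neuronal transport genes were Lrrc7 (-1.35 and 7.13), Syndig1 (-1.58 and 2.49), Kif1a (-1.79 and 3.04) and Pex5l (-1.24 and 2.66). The remaining genes were Fendrr (-3.38 and 0.27), Bend4 (-2.72 and 2.06), Plxdc2 (-1.65 and 1.36), Pde5a (-2.31 and 0.95), Tceal5 (-7.09 and 3.03), Osbpl6 (-0.77 and 1.13) and Grb14 (-0.83 and 2.99). For Chrdl1, Tcaf2 and Tceal5 a line of the pair had no count, so the fitted change depends on the prior count.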

How the results depend on the processing

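Under another tool or scaling, the 125 genes called in the pair were 111 (DESeq2), 126 (RLE scaling) and 127 (top features left out), of which 96, 124 and 125 were shared, and 53.6% to 56.8% were higher. Without a filter on low counts, genes called were 378 in the pair, 108 the same way and 85 the opposite way in knockout clone 2, 82 back in rescue and 70 the same way in the METTL3 knockout. With exon counts summed per gene they were 78, 18 the opposite way, 3 back and 19 with the METTL3 knockout; a fit of only the 4 libraries called 248. Leaving out 1 library gave 46 to 62 genes in the pair, 2548 to 3950 in knockout clone 2, 20 to 53 the same way, 14 to 48 the opposite way, 3 to 17 back and 15 to 36 with the METTL3 knockout. It gave 3 to 17 exon bins in the pair, 1 to 3 the same way, 1 to 28 intron bins and 1 to 3 the same way. A quasi-likelihood bin test called 6 exon and 2 intron bins in the pair. With at least 30 counts per bin, 4 exon bins were called the same way and 4 back in rescue. The Ythdf2 bin at 132205514 had a change of -2.04 to 0 when 1 library of the pair was left out, 0 being without replicate 1 of knockout clone 1. A line left with 1 library was assumed to vary like the others, and apart from these the cause was not tested. Of 35 named genes called the same way in knockout clone 2, 23 were called under every alternative, and of 14 called back, 2 were.

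The replicate numbers were not used to pair the lines in the main fit, and whether same-numbered libraries shared a batch was not tested. Same-numbered libraries deviated together in 11 of 28 pairs of lines (correlation over 0.1, range -0.225 to 0.365, and 0.155 for the pair). With the replicate block 153 genes were called in the pair, 4352 in knockout clone 2, 45 the same way, 46 the opposite way, 23 back and 38 with the METTL3 knockout, and 15 exon bins. At 0 to 3 counts in a line, depth sets how large a change can be shown.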
